A study of Mus musculus with 9 samples.

Results

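The genes described here carry the names of the subunits of respiratory complex I that are encoded in the cell nucleus. They were taken by name and class from the deposited tables: protein-coding genes named Nduf followed by a, b, c, s or v and a digit, and Ndufab1, with the Ndufaf assembly factors left out. This gave 39 of the 55421 genes listed, and all 39 were tested in every comparison. Of these, 37 belong to the structural groups of complex I, while Ndufa4 and Ndufa4l2 stand outside them. For short, all 39 are called subunit genes or complex I genes below. Ndufb1 stands in the tables as Ndufb1-ps, a symbol that RefSeq lists as a synonym of Ndufb1, and is annotated there as protein-coding. The 4 processed pseudogenes that match the name pattern, Ndufa11b, Ndufb4c, Ndufs6b and Ndufab1-ps, are not among the 39.

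RNA-seq was made from C2C12 cells, a mouse myoblast line that fuses into myotubes in culture, after 4 days of differentiation. The cells were infected for 4 h at a multiplicity of infection of 3 with an adenovirus and harvested at 48 h, with 3 libraries for each virus. The FL virus carried HA-Flag-tagged full-length PGC-1alpha, a transcriptional coactivator of mitochondrial genes encoded by Ppargc1a. The dCTD virus carried PGC-1alpha without its C-terminal domain, the end of the protein with its RNA recognition motif, and the LacZ virus carried a bacterial enzyme as the control. All groups therefore share the C2C12 background and an adenoviral infection, their own Ppargc1a gene was left in place, and no uninfected cells were analysed here. The viral PGC-1alpha was made beyond the control of the cell's own gene, and the promoter that drives it is not given in the sources used here. The labels call the libraries biological replicates without saying whether these were separate cultures or passages. The p-values therefore set differences against the spread between these libraries only. Those from limma draw that spread partly from the other genes fitted.

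Complex I, NADH:ubiquinone oxidoreductase, takes electrons from NADH to ubiquinone and pumps protons across the inner mitochondrial membrane. Its peripheral arm holds the N module, which oxidizes NADH, and the Q module, which reduces ubiquinone. The membrane arm pumps protons and has a proximal and a distal part. The core subunits carry out catalysis, part of them encoded in the nucleus and part in mitochondrial DNA, and the accessory subunits surround them. Most subunits are unstable outside the complex, so the enzyme needs many proteins made in set proportions from genes scattered over the genome. PGC-1alpha is known to raise such genes in muscle by binding to transcription factors on their promoters, chiefly the estrogen-related receptors (ERRs) and NRF1.

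The promoter letters are given as a description of the subunit genes, which sit on separate promoters. The part of these letters in the results that follow was not tested. RefSeq promoter windows, from 250 bases before to 50 after the annotated start in GRCm38.p6, were matched to 33 of the 39 genes. Ndufa2, Ndufa4l2, Ndufb1-ps, Ndufb9 and Ndufs1 are among those without one. Short motifs were searched on both strands as exact letters, so variant spellings of a motif were not counted. The full ERR element TCAAGGTCA was in 0 of 33 windows and in 0.423% of all 32851 promoter windows of the table. The ERR half-site AAGGTCA, which the full element contains, was in 3 of 33 (9.09%, against 4.72% of all). The NRF1 motif core GCATGCGC was in 3 of 33 (9.09%, against 2.71% of all), and the ETS core CCGGAAG in 4 of 33 (Ndufb6, Ndufb7, Ndufs3 and Ndufs8; 12.1%, against 8.86% of all). A match describes letters and is not a bound site, and a window without one says only that these letters are not in it.

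The ERR half-sites, in capitals with 10 bases on either side, lay in the windows of Ndufb2 (chr6:39592374-39592400, plus strand), Ndufb4 (chr16:37654407-37654433, minus strand) and Ndufs5 (chr4:123718398-123718424, minus strand, where the match is on the other strand and reads as its reverse complement). The sequences run 5′ to 3′ along the gene.
Ndufb2: gagcagcagtAAGGTCAgccaagagca
Ndufb4: cctgagcctgAAGGTCAgactcgagag
Ndufs5: ttctcgagtgTGACCTTgctcaagtag
The NRF1 cores, in capitals, lay in the windows of Ndufa6 (chr15:82354357-82354384, minus strand), Ndufa8 (chr2:36049339-36049356, minus strand, ending at the annotated start) and Ndufa11 (chr17:56717694-56717721, plus strand), where a second match on the other strand overlaps it.
Ndufa6: ccgcggtagaGCATGCGCattgcagagc
Ndufa8: cgctggagacGCATGCGC
Ndufa11: tgcactgcgcGCATGCGCgcacgccttg
Beside the median log2 fold change of 1.30 for FL over LacZ among the 39 genes, the 3 genes with an NRF1 core stood at 1.73 (Ndufa8), 1.72 (Ndufa11) and 1.36 (Ndufa6). The 3 with an ERR half-site stood at 1.32 (Ndufb4), 0.88 (Ndufb2) and 0.86 (Ndufs5).

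The 250 bases before the start are shown for 3 genes: Ndufb4 (chr16:37654369-37654618, minus strand), the highest of the genes with a half-site for FL over LacZ, Ndufs5 (chr4:123718187-123718436, minus strand), the lowest of them, and Ndufb10 (chr17:24724424-24724673, minus strand), the highest of the genes without one. Capitals mark the half-site, and none of the motifs searched is in the Ndufb10 window. The start meant here is the RefSeq start of the window. By the deposited positions the genes begin further upstream, at 37654453 (Ndufb4), 123718202 (Ndufs5) and 24724478 (Ndufb10). Part of each stretch, and the half-site of Ndufb4, therefore lie inside the gene by those positions. The same holds for the NRF1 core of Ndufa8, which begins at 36049406 by the deposited positions.
Ndufb4: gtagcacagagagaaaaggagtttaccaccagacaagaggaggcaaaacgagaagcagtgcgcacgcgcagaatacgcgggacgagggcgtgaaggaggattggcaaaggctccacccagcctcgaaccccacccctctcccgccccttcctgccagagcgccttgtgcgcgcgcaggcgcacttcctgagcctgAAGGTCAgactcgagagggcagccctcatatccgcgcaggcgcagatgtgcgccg
Ndufs5: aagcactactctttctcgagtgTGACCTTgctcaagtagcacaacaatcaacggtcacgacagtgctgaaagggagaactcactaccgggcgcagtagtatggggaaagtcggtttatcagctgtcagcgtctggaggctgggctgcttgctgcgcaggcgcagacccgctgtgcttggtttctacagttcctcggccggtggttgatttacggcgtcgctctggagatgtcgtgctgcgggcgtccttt
Ndufb10: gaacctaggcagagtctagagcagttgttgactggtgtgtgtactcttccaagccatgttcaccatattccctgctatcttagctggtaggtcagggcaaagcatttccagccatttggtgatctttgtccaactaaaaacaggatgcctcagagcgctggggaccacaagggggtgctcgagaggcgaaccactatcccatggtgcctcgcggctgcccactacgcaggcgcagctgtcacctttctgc

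Depth was 99906750 to 123446198 reads per library with FL, 87090490 to 110673140 with dCTD and 110309704 to 118931863 with LacZ. Ppargc1a, the gene carried by both PGC-1alpha viruses, had 227297, 198071 and 209100 normalized counts (on 1 scale for all 9 libraries) with FL, 100543, 121631 and 116095 with dCTD and 408.3, 382.7 and 399.7 with LacZ. FL exceeded dCTD by 0.91 ± 0.07 on the log2 scale (limma, adjusted p = 2.04e-06), and the counts do not separate the viral transcript from the cell's own. The summed level of 8 myotube markers, all detected, was 7420 to 7680 RPM (reads scaled to a library of 1000000, without Ppargc1a) with FL, 6670 to 6980 with dCTD and 8970 to 9460 with LacZ. The markers did not move together: Des averaged 3694 RPM with FL, 2427 with dCTD and 2162 with LacZ, while Myh3 averaged 460.7 with FL, 451.1 with dCTD and 1566 with LacZ. Acta1 (1228 with FL, 1600 with dCTD, 2585 with LacZ), Mymk (282.7, 319.5 and 566.1 in that order) and Myog (296.9, 311.3 and 471.4) were also lower with both forms. Tnnt3 (1348, 1359 and 1521) was lower with both by less. Actn2 (57.2, 100.8 and 64.6) was lower with FL and higher with dCTD than with LacZ. Ckm (145.1, 240.4 and 227) was lower with FL, while its dCTD and LacZ libraries overlapped. The summed level of the myoblast markers Myf5 and Pax7 was 50.6 to 54.6 with FL, 54.8 to 55.6 with dCTD and 42.7 to 45.2 with LacZ. The higher sums with FL and dCTD came from Myf5, which averaged 23.4 with FL, 24.5 with dCTD and 14.3 with LacZ. Pax7 differed little, at 28.6, 30.8 and 29.8 in that order. The fibroblast markers Pdgfra, Thy1 and Dcn summed to 186 to 204 with FL, 209 to 224 with dCTD and 225 to 240 with LacZ. Markers of adipocytes, endothelial cells and macrophages summed to at most 0.261 in any library, and the macrophage marker Adgre1 was at 0 in all FL and dCTD libraries. The Ppargc1a level and the myotube, myoblast and fibroblast sums did not overlap between the groups, and their part in the results on complex I was not tested. All 37 genes of the mitochondrial chromosome, among them the 7 genes mt-Nd1 to mt-Nd6 and mt-Nd4l for the other core subunits of complex I, are listed at 0 in all 9 libraries, so only the nuclear side of the enzyme can be described.

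With FL, all 39 subunit genes rose over LacZ, and each had all 3 FL libraries above all 3 LacZ libraries. Of all 18227 genes tested, 30.9% rose, 28.3% fell and 32.8% had all 3 FL libraries above all 3 LacZ libraries. The median log2 fold change of the 39 genes was 1.30, a fold of 2.46, against -0.01 over all genes tested, and the values ran from 0.24 for Ndufb1-ps to 2.30 for Ndufb10. The rise exceeded 2-fold for 24 of the 39, against 1576 of the 18227 genes tested. With dCTD, 38 of 39 rose over LacZ, where 23.1% of the 18066 genes tested rose and 21.7% fell. The median was 0.88 and the range 0.14 for Ndufa7 to 1.45 for Ndufb10. The rise exceeded 2-fold for 16 of the 39, against 776 of the 18066 genes tested. All 3 dCTD libraries lay above all 3 LacZ libraries for 37 of 39 genes, against 26.3% of all genes tested. The gene that did not pass was Ndufa4l2, at 0.41 ± 0.35 (adjusted p = 0.38, limma). These and the following values are log2 fold changes ± standard errors from limma on log2(normalized count + 1), with 3 libraries a group and p-values adjusted over all genes tested by the Benjamini-Hochberg method, with 0.05 as the threshold. FL and dCTD were each set against the same 3 LacZ libraries. In bulk RNA, a change in the number of cells of a type and a change in RNA per cell cannot be told apart.

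**Figure D1:**
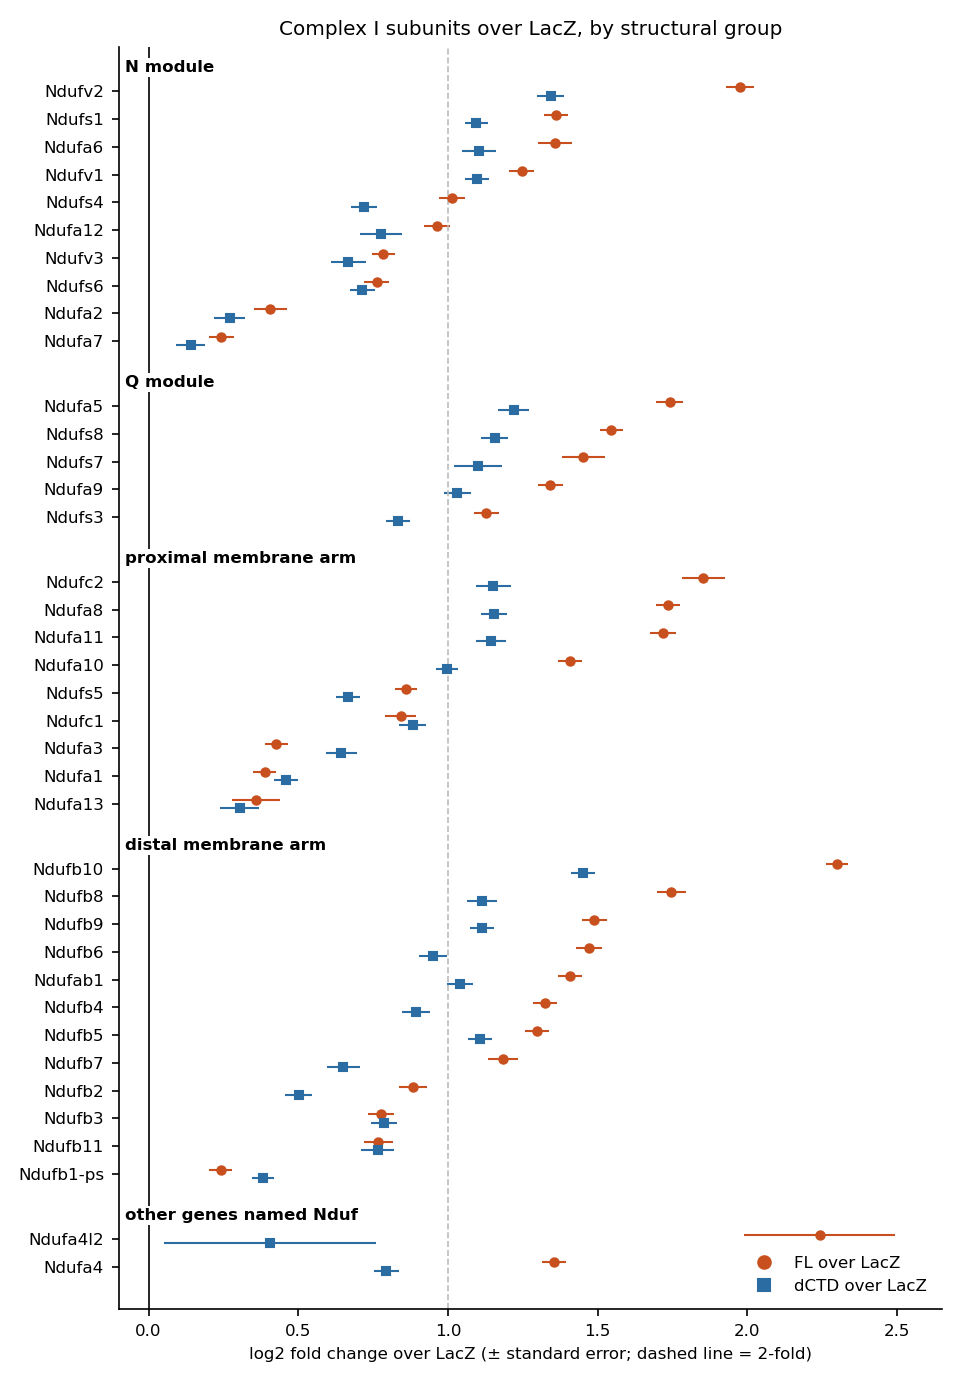
Log2 fold change over LacZ (x axis, ± standard error, 3 libraries a group) of 38 genes, FL as circles and dCTD as squares, ordered by FL within each structural group; the dashed line marks 2-fold. All FL points lie right of 0, from 0.24 (Ndufb1-ps) to 2.30 (Ndufb10). The N module and both membrane arms hold FL values on either side of the 2-fold line, and the FL values of the Q module genes drawn lie right of it.

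The core subunits encoded in the nucleus hold the flavin, the iron-sulfur clusters and the ubiquinone site. Ndufv2, an iron-sulfur subunit of the N module (chromosome 17, 66078638 to 66101559, minus strand, mm10), changed most among them. It had 50942, 46139 and 51915 normalized counts with FL, 31125, 31192 and 34317 with dCTD and 11949, 12547 and 13406 with LacZ. The 3 groups did not overlap, with dCTD between the others. Its log2 fold change was 1.98 ± 0.05 for FL (adjusted p = 6.35e-21) and 1.34 ± 0.05 for dCTD (adjusted p = 1.03e-16).

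Ndufs8, an iron-sulfur subunit next to the ubiquinone site, had 24411, 23339 and 25581 normalized counts with FL, 18796, 17356 and 20184 with dCTD and 8076, 8588 and 8442 with LacZ. The groups were again separate, at 1.55 ± 0.04 for FL and 1.16 ± 0.05 for dCTD over LacZ. Ndufs7, which carries the last iron-sulfur cluster before ubiquinone, had 10635, 10484 and 11800 with FL, 9496, 7907 and 8592 with dCTD and 3601, 4369 and 4084 with LacZ. It rose by 1.45 ± 0.07 with FL and by 1.10 ± 0.08 with dCTD. Ndufs1, the largest subunit of the peripheral arm, had 62204, 55442 and 57302 with FL, 46625, 49804 and 49750 with dCTD and 22249, 22539 and 23271 with LacZ. Its change was 1.36 ± 0.04 for FL and 1.10 ± 0.04 for dCTD, again without overlap. Ndufs1 overlaps Eef1b2, a translation factor gene of a like read number on the other strand. The 2 genes start 8 bases apart and run away from each other, so only a short stretch at the starts is shared. Whether reads were shared there was not tested.

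Ndufv1, which binds NADH and the flavin, had 37800, 34505 and 36679 normalized counts with FL, 33131, 31761 and 33961 with dCTD and 15086, 16181 and 14713 with LacZ. FL and dCTD lay close together, both well above LacZ, at 1.25 ± 0.04 and 1.10 ± 0.04. Ndufs3, a Q module subunit needed at the first step of assembly, had 22946, 20387 and 22111 with FL, 17819, 17085 and 18679 with dCTD and 9629, 9934 and 10360 with LacZ, at 1.13 ± 0.04 and 0.83 ± 0.04. Ndufs3 overlaps Kbtbd4 on the other strand.

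**Figure D2:**
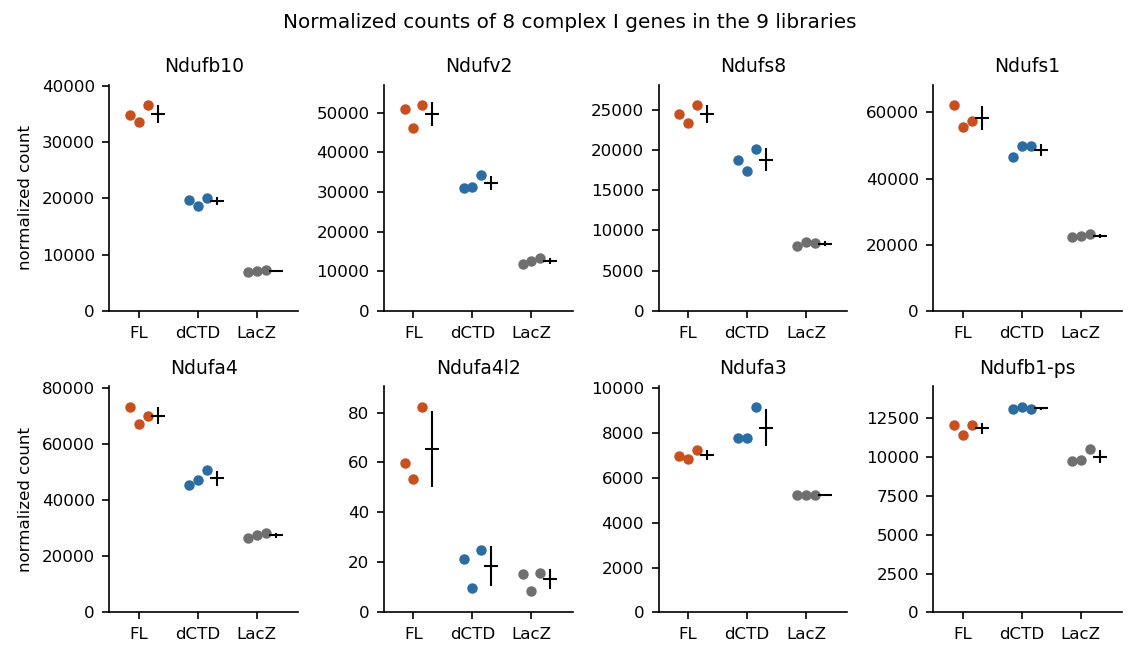
Normalized counts (y axes from 0, each panel on its own scale) of 8 genes in the FL, dCTD and LacZ libraries, 1 point per library, with the mean ± SD of 3 libraries beside them. In Ndufb10, Ndufv2, Ndufs8, Ndufs1 and Ndufa4 the 3 groups are separate with FL on top, Ndufa3 and Ndufb1-ps have dCTD on top, and in Ndufa4l2 dCTD and LacZ overlap.

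In the N module all 10 subunit genes rose with FL and with dCTD, with medians of 0.99 and 0.75, and 5 and 4 of them exceeded 2-fold. Beside the core subunits, Ndufa6, which docks the acyl carrier protein, rose by 1.36 ± 0.06 with FL and 1.10 ± 0.06 with dCTD. Ndufs4, which holds the N module in place and whose loss causes Leigh syndrome in humans, rose by 1.01 ± 0.04 and 0.72 ± 0.04. Ndufa12, which takes the place of an assembly factor late in assembly, rose by 0.96 ± 0.04 and 0.78 ± 0.07, the zinc-binding subunit Ndufs6 by 0.76 ± 0.04 and 0.71 ± 0.04, and Ndufv3 by 0.78 ± 0.04 and 0.67 ± 0.06. The smallest changes were in Ndufa2, a thioredoxin-fold subunit, and Ndufa7.

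Ndufa2 had 8896, 9172 and 9985 normalized counts with FL, 8890, 8073 and 8711 with dCTD and 6421, 7454 and 7314 with LacZ, so that all FL and dCTD libraries lay above all LacZ libraries. It rose by 0.41 ± 0.06 with FL and 0.27 ± 0.05 with dCTD. Ndufa7 had 10334, 10601 and 11233 with FL, 10425, 9217 and 10496 with dCTD and 8563, 9381 and 9244 with LacZ. The dCTD and LacZ libraries of Ndufa7 overlapped. It rose by 0.24 ± 0.04 with FL (adjusted p = 6.71e-06) and by 0.14 ± 0.05 with dCTD (adjusted p = 0.0234), and for dCTD it did not pass when LacZ replicate 1 (adjusted p = 0.103), dCTD replicate 1 (0.104) or dCTD replicate 3 (0.117) was left out.

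In the Q module, beside the core subunits described above, Ndufa5 rose by 1.74 ± 0.05 with FL and 1.22 ± 0.05 with dCTD, and Ndufa9, which has a dehydrogenase-like fold and binds NADPH, by 1.34 ± 0.04 and 1.03 ± 0.05. Ndufa5 had 17076, 15898 and 17010 normalized counts with FL, 11046, 11615 and 12402 with dCTD and 4603, 5040 and 5346 with LacZ, with no overlap between the groups.

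In the proximal membrane arm all 9 genes rose with both forms, with medians of 0.86 and 0.88, and 4 exceeded 2-fold with FL. Ndufc2 rose by 1.85 ± 0.07 with FL and 1.15 ± 0.06 with dCTD, Ndufa8 by 1.73 ± 0.04 and 1.15 ± 0.04, Ndufa11 by 1.72 ± 0.04 and 1.14 ± 0.05, and Ndufa10, which resembles a nucleoside kinase, by 1.41 ± 0.04 and 1.0 ± 0.04. The other genes were under 2-fold with both forms: Ndufs5 at 0.86 ± 0.04 and 0.67 ± 0.04, Ndufc1 at 0.84 ± 0.05 and 0.88 ± 0.05, Ndufa3 at 0.43 ± 0.04 and 0.64 ± 0.05, Ndufa1 at 0.39 ± 0.04 and 0.46 ± 0.04, and Ndufa13, also known as GRIM-19, at 0.36 ± 0.08 and 0.31 ± 0.07. Ndufc1 and Ndufc2, whose proteins touch each other in the complex, thus had changes of 0.84 and 1.85 with FL, while with dCTD they stood at 0.88 and 1.15.

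The values by library show the same contrast. Ndufc2 had 13881, 13385 and 15061 normalized counts with FL, 9166, 8439 and 8558 with dCTD and 3516, 3951 and 4275 with LacZ. Ndufc1 had 7244, 7255 and 8033 with FL, 7803, 7797 and 7684 with dCTD and 3983, 4044 and 4555 with LacZ. FL lay above dCTD in every library of Ndufc2, and the FL and dCTD libraries of Ndufc1 overlapped. Ndufa8, a membrane-arm subunit on the side of the intermembrane space, had 24592, 23048 and 25374 with FL, 16232, 15470 and 17404 with dCTD and 7278, 7552 and 7113 with LacZ.

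In the distal membrane arm all 12 genes rose with both forms, with medians of 1.31 and 0.92. Ndufb10 (ENSMUSG00000040048, chromosome 17, 24722060 to 24724478, minus strand, mm10), a subunit with disulfide bonds that is imported into the intermembrane space, changed most. It had 34782, 33499 and 36541 normalized counts with FL, 19752, 18691 and 20100 with dCTD and 6933, 7158 and 7200 with LacZ. The groups lay far apart against their spread, at 2.30 ± 0.04 for FL (adjusted p = 3.8e-29) and 1.45 ± 0.04 for dCTD (adjusted p = 2.18e-19), a 4.92-fold and a 2.73-fold rise. Ndufb8, a subunit often used as the marker of complex I on blots, had 27001, 24499 and 27514 with FL, 17127, 15984 and 18183 with dCTD and 7303, 8247 and 8013 with LacZ. It rose by 1.75 ± 0.05 and 1.11 ± 0.05.

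Ndufb9 rose by 1.49 ± 0.04 with FL and 1.11 ± 0.04 with dCTD, Ndufb6 by 1.47 ± 0.04 and 0.95 ± 0.05, Ndufb4 by 1.32 ± 0.04 and 0.89 ± 0.05, and Ndufb5 by 1.30 ± 0.04 and 1.11 ± 0.04. Ndufab1, the mitochondrial acyl carrier protein, which also serves fatty acid and iron-sulfur cluster synthesis outside complex I, rose by 1.41 ± 0.04 and 1.04 ± 0.04. Ndufb7 rose by 1.19 ± 0.05 and 0.65 ± 0.06, Ndufb2 by 0.88 ± 0.05 and 0.50 ± 0.05, Ndufb3 by 0.78 ± 0.04 and 0.79 ± 0.04, and Ndufb11 by 0.77 ± 0.05 and 0.77 ± 0.06. Ndufb1-ps had 12060, 11413 and 12080 normalized counts with FL, 13077, 13257 and 13073 with dCTD and 9775, 9825 and 10498 with LacZ. Its FL libraries lay between the dCTD and the LacZ libraries, at 0.24 ± 0.04 for FL and 0.38 ± 0.04 for dCTD over LacZ. Ndufb1-ps overlaps Cpsf2, Ndufb2 overlaps Braf, Ndufb5 overlaps Mrpl47 and Ndufb11 overlaps Rbm10, each on the other strand.

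Ndufa4 carries a complex I name but is now counted with complex IV, and Ndufa4l2 is its paralog, known as a hypoxia-induced gene that lowers complex I activity. Ndufa4 (chromosome 6, 11900292 to 11907497, minus strand) had 73473, 67279 and 70053 normalized counts with FL, 45530, 47341 and 50875 with dCTD and 26622, 27489 and 28291 with LacZ. The groups were separate, at 1.36 ± 0.04 for FL and 0.79 ± 0.04 for dCTD. Ndufa4l2 (chromosome 10, 127514967 to 127517154, plus strand) was low, with 59.87, 53.58 and 82.37 with FL, 21.2, 9.705 and 25.13 with dCTD and 15.29, 8.588 and 15.88 with LacZ. Its FL libraries lay above all others while dCTD and LacZ overlapped, and its change was 2.24 ± 0.25 for FL (adjusted p = 4.69e-09). Ndufa4l2 shares 32 of its 1095 exon bases (2.92%) with Shmt2 on the other strand, a serine enzyme gene with 17047 ± 62 normalized counts with FL, 10437 ± 585.1 with dCTD and 8810 ± 507.1 with LacZ (SD, n = 3 each). Shmt2 thus moved in the same order of groups, and whether part of the Ndufa4l2 reads belongs to it was not tested.

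FL was set against dCTD to see what the missing C-terminal domain changed. The 2 forms stand in separately normalized tables, so this comparison used the recovered reads of all 9 libraries on 1 scale. With FL, 29 of the 39 genes were higher than with dCTD, 2 were lower and 8 did not pass, with a median log2 difference of 0.29 against -0.002 over all genes. Of all 18129 genes tested, 22.4% were higher and 17.8% lower with FL. All 3 FL libraries lay above all 3 dCTD libraries for 28 genes, against 26.1% of all genes tested. Beside these counts, the level of Ppargc1a was 1.88-fold higher with FL than with dCTD, and its part in the difference was not tested. The difference passed 2-fold for 1 of the 39 genes, Ndufa4l2, against 622 of the 18129 genes tested. Only Ndufb10 and Ndufa4l2 passed a test against a minimum change of 1.5-fold, which 692 of all genes tested passed as higher.

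The largest differences were 1.83 ± 0.28 for Ndufa4l2 (95% interval 1.25 to 2.40), 0.84 ± 0.04 for Ndufb10 (0.76 to 0.92), 0.69 ± 0.04 for Ndufc2, 0.62 ± 0.05 for Ndufv2 and 0.62 ± 0.05 for Ndufb8. Ndufa8 and Ndufa11 followed at 0.57 ± 0.04 each, then Ndufa4 at 0.55 ± 0.04 and Ndufb7 at 0.53 ± 0.05. Ndufb7, a distal-arm subunit, had 21815, 21315 and 23881 normalized counts with FL, 16343, 14251 and 15954 with dCTD and 9256, 10642 and 9607 with LacZ. The difference of Ndufv1 was 0.14 ± 0.04.

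The 2 genes lower with FL than with dCTD were Ndufa3 and Ndufb1-ps, both small membrane-arm subunits. Ndufa3 had 6987, 6854 and 7269 normalized counts with FL, 7782, 7780 and 9189 with dCTD and 5240, 5225 and 5239 with LacZ. No FL library of Ndufa3 reached the lowest dCTD library, and the difference was -0.23 ± 0.05 (95% interval -0.34 to -0.11, adjusted p = 0.003). The difference of Ndufb1-ps was -0.15 ± 0.04 (95% interval -0.22 to -0.08, adjusted p = 0.000997), with its dCTD libraries above all FL libraries.

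The 8 genes that did not pass were Ndufa1, Ndufa7, Ndufa13, Ndufb3, Ndufb11, Ndufc1, Ndufs6 and Ndufv3. Their intervals bound the difference: -0.157 to -0.002 for Ndufa1, 0.003 to 0.188 for Ndufa7, -0.072 to 0.163 for Ndufa13, -0.104 to 0.067 for Ndufb3, -0.084 to 0.073 for Ndufb11, -0.129 to 0.031 for Ndufc1, -0.044 to 0.123 for Ndufs6 and -0.020 to 0.238 for Ndufv3. These intervals are not adjusted for the number of genes, and those of Ndufa1 and Ndufa7 leave out 0 while the adjusted p-values, 0.0974 and 0.0942 (limma), miss the threshold. Ndufb11, a distal-arm subunit on the X chromosome, had 21120, 20642 and 21440 normalized counts with FL, 21665, 19886 and 21960 with dCTD and 11175, 13223 and 12853 with LacZ. Ndufb3 had 10805, 9916 and 11008 with FL, 10105, 11013 and 11015 with dCTD and 5910, 6099 and 6511 with LacZ. In both, FL and dCTD overlapped and each lay above LacZ. The small membrane-arm subunit Ndufa1, also on the X chromosome, had 7683, 7597 and 8036 with FL, 8042, 7991 and 8609 with dCTD and 5782, 5965 and 6081 with LacZ.

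Ndufs6 had 8205, 8381 and 9122 normalized counts with FL, 8168, 8089 and 8739 with dCTD and 4883, 4990 and 5283 with LacZ. Ndufa13 had 14060, 14672 and 16269 with FL, 15284, 13428 and 14876 with dCTD and 10520, 12664 and 11952 with LacZ. Ndufv3 had 15007, 14390 and 15485 with FL, 13026, 13152 and 15564 with dCTD and 8444, 9125 and 8514 with LacZ. In each of these the FL and dCTD libraries overlapped. Some calls did not hold when single libraries were left out. Ndufa2 did not pass without FL replicate 3 (log2 difference 0.079, adjusted p = 0.194) or dCTD replicate 2 (0.086, adjusted p = 0.122), against 0.127 with all libraries. Ndufa12 did not pass without FL replicate 2 (0.196, adjusted p = 0.0517) or dCTD replicate 2 (0.144, adjusted p = 0.0848), and Ndufs7 without dCTD replicate 3 (0.339, adjusted p = 0.0588), with differences close to the 0.182 of Ndufa12 and 0.343 of Ndufs7 over all libraries. Ndufv3 passed without dCTD replicate 3 (adjusted p = 8.13e-05), and Ndufa7 without dCTD replicate 1 (0.0422) or dCTD replicate 3 (0.0309).

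**Figure D3:**
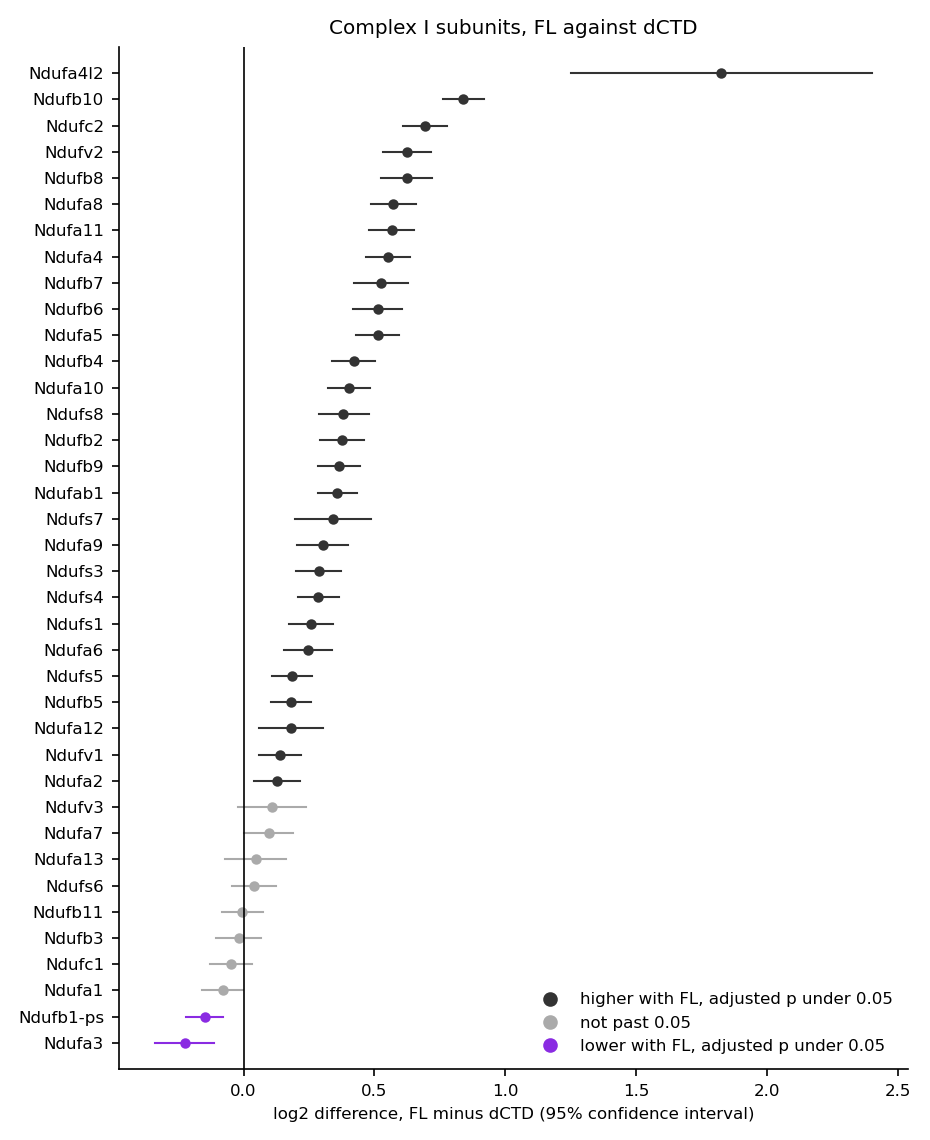
Log2 difference FL minus dCTD (x axis, with its 95% confidence interval, 3 libraries a group) for 38 genes, ordered by size; dark points passed as higher with FL, grey points did not pass and purple points passed as lower. The values run from -0.23 (Ndufa3) to 1.83 (Ndufa4l2), with 28 dark, 8 grey and 2 purple points.

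Scaling by the total reads without Ppargc1a, in place of size factors, shifted the split of calls over all genes toward lower. It gave 4575 higher and 7140 lower genes for FL over LacZ, against 5637 and 5162 with size factors, and 3141 higher and 5410 lower for FL over dCTD, against 4053 and 3228. Under this scaling 39 of 39 subunit genes still rose with FL over LacZ, with a median of 1.21, and 26 were higher and 4 lower with FL than with dCTD. Ndufa1 (-0.15) and Ndufc1 (-0.12) were the added lower genes, and Ndufa2, Ndufa12 and Ndufv1 no longer passed as higher.

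Levels can be compared between genes only per length, as TPM, the recovered reads per base of exon scaled to 1 fixed total per library. On this scale Ndufa4 was the highest gene in every group, with 1587 ± 50.2 TPM with FL, 1146 ± 52.1 with dCTD and 675 ± 13.7 with LacZ (SD, n = 3 each). Among the subunits of complex I proper, Ndufb9 was highest with FL and dCTD, at 1043 ± 50.3 and 857 ± 18.5 TPM, against 404 ± 13.2 with LacZ. Ndufb10 stood at place 3 of 39 with FL, 7 with dCTD and 16 with LacZ, with 896 ± 31.7, 530 ± 11.7 and 198 ± 1.41 TPM. Ndufa13 and Ndufb1-ps, with small fold changes, had the opposite order of places: Ndufa13 stood at place 20 with FL, 17 with dCTD and 7 with LacZ, and Ndufb1-ps at place 21 with FL, 19 with dCTD and 9 with LacZ. At the low end were Ndufb2, with 23.3 ± 0.96 TPM with FL, 19.0 ± 0.14 with dCTD and 13.7 ± 0.56 with LacZ, and Ndufa4l2, with 1.86 ± 0.42, 0.56 ± 0.23 and 0.41 ± 0.13. The exon length joins all exons of all annotated transcripts, so a gene with long, rarely used isoforms gets a lower TPM.

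**Figure D4:**
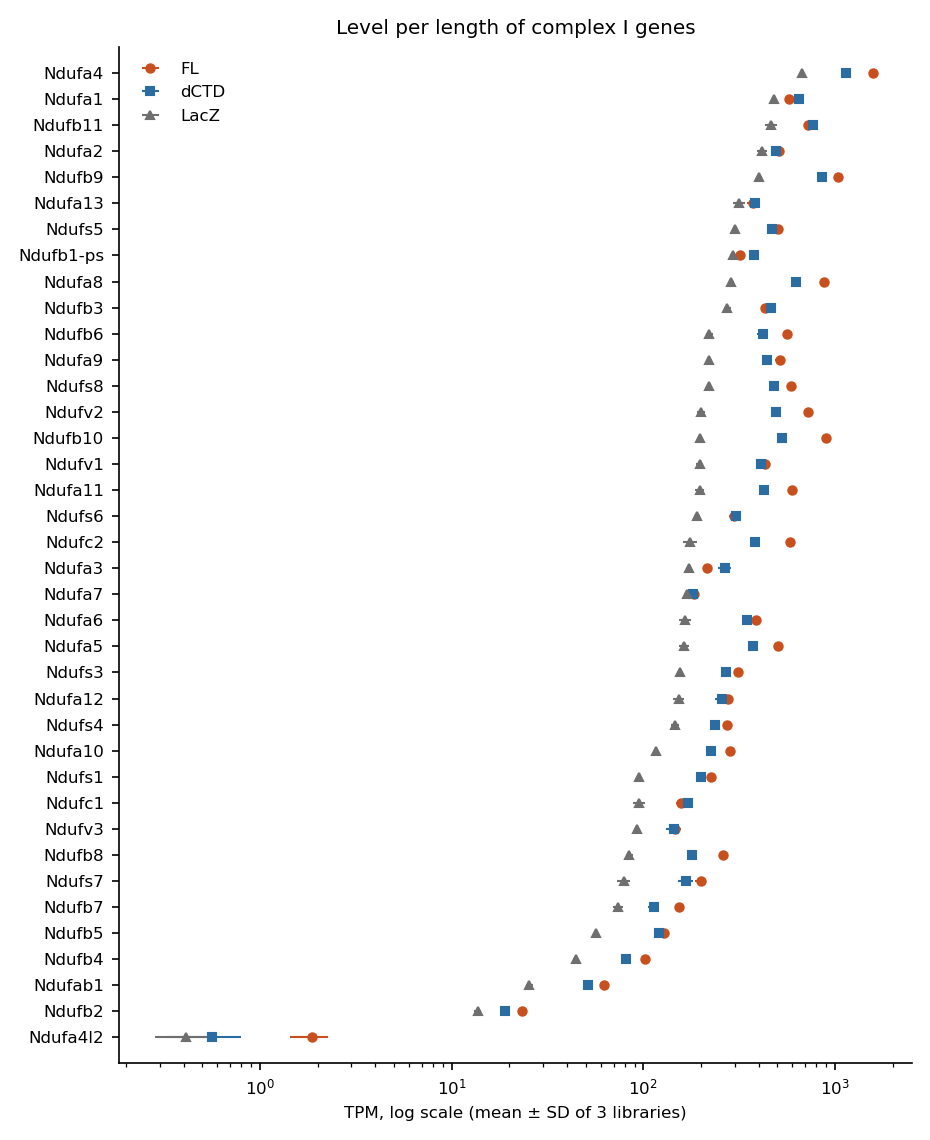
Level per length in TPM (x axis, log scale, mean ± SD of 3 libraries) of 38 genes in FL (circles), dCTD (squares) and LacZ (triangles), ordered by the LacZ level. Apart from Ndufa4l2 the LacZ means lie between 13.7 and 675 TPM, and Ndufb10 stands at 896 TPM with FL and 198 TPM with LacZ.

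Taken as 1 sum, the 39 genes held 7657, 7351 and 7853 RPM with FL, 6268, 6176 and 6570 with dCTD and 3357, 3550 and 3561 with LacZ. The groups did not overlap. The ratio was 2.18 for FL over LacZ, 1.82 for dCTD over LacZ and 1.20 for FL over dCTD, each with an exact two-sided permutation p of 0.1, the smallest that 3 against 3 libraries allow. The spread of levels among the genes, as the SD of log2(TPM + 1), was 1.61 with FL, 1.67 with dCTD and 1.59 with LacZ. The differences in spread over all 39 genes were 0.0183 for FL minus LacZ, 0.075 for dCTD minus LacZ and -0.0567 for FL minus dCTD, with exact two-sided permutation p-values of 0.2, 0.1 and 0.1. Without Ndufa4 and Ndufa4l2 the spread was 1.14 with FL, 1.13 with dCTD and 1.13 with LacZ. The differences over these 37 genes were 0.0136, -0.00198 and 0.0155, with exact p-values of 0.1, 0.7 and 0.1, so the sign turned in the comparisons with dCTD. With a pseudocount of 0.1 the difference for FL minus LacZ turned to -0.0967. The direction of a change in spread therefore depended on these settings.

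Complex I is put together by assembly factors that are not part of the finished enzyme. Of 19 listed factors 18 were found and tested, and 15 rose with FL over LacZ while 3 did not pass, with a median of 0.67. With dCTD 16 rose and 2 did not pass, with a median of 0.49. Between FL and dCTD 7 were higher and 2 lower with FL, with a median difference of 0.06. Of all genes tested, 30.9% rose with FL and 23.1% with dCTD over LacZ. Between FL and dCTD 22.4% of all genes were higher and 17.8% lower with FL. The factor with the highest fold change over LacZ with FL was Ndufaf5, which hydroxylates Ndufs7 in the Q module, with 4191, 3782 and 4183 normalized counts with FL, 3250, 3328 and 3285 with dCTD and 1069, 1147 and 1258 with LacZ. It rose by 1.81 ± 0.06 with FL and 1.5 ± 0.05 with dCTD. Ndufaf4 rose by 1.62 ± 0.04 and 1.05 ± 0.04, and Ndufaf6 by 1.32 ± 0.07 and 1.23 ± 0.07.

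At the low end of the assembly factors, Nubpl, which delivers iron-sulfur clusters to complex I, had 1763, 1581 and 1741 normalized counts with FL, 1728, 1711 and 1735 with dCTD and 1603, 1753 and 1703 with LacZ. The 3 groups overlapped, and its values of 0.01 ± 0.05 for FL and 0.03 ± 0.05 for dCTD did not pass. Dmac1, a factor of the distal membrane arm, stood at 0.04 ± 0.05 and -0.02 ± 0.05 and passed in neither. Tmem126b, a part of the membrane-arm assembly complex, stood at 0.02 ± 0.04 for FL, which did not pass, and rose by 0.20 ± 0.04 with dCTD. The factors thus include genes with a change near 0, while the lowest subunit gene stood at 0.24 with FL.

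The nuclear subunits of complexes II to V were the list closest in kind. Of 41 listed genes 40 were found, and 40 of 40 rose with FL and with dCTD, with medians of 1.39 and 1.06, beside 1.30 and 0.88 for the 39 complex I genes. With FL over dCTD 29 of 40 were higher and 1 lower, with a median of 0.26 beside 0.29. Of all genes tested, 30.9% rose with FL and 23.1% with dCTD over LacZ. With FL over dCTD 22.4% of all genes were higher and 17.8% lower. The values for FL over LacZ ran from 0.24 for Atp5g2, an ATP synthase gene, to 3.95 for Cox7a1, a muscle form of a complex IV subunit.

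**Figure D5:**
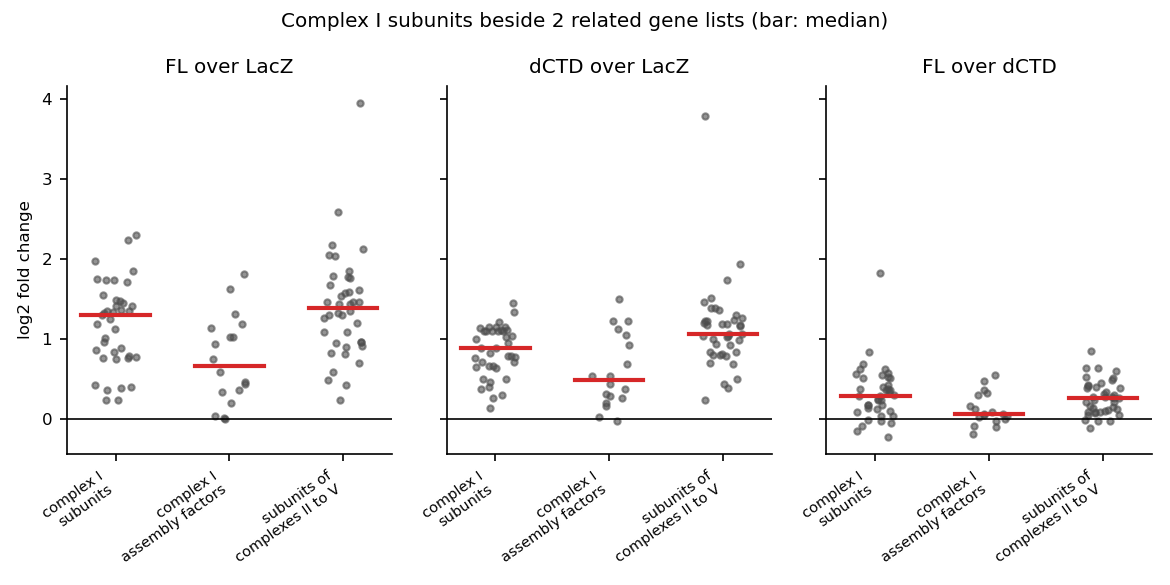
Log2 fold change (y axis) of each gene, 1 point per gene, for the 39 complex I subunit genes, 18 complex I assembly factors and 40 nuclear subunits of complexes II to V, with a bar at the median; panels show FL over LacZ, dCTD over LacZ and FL over dCTD. For FL over LacZ the medians are 1.30, 0.67 and 1.39, and for FL over dCTD 0.29, 0.06 and 0.26.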

How the data were processed

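In each of 2 deposited tables the authors set 1 form of PGC-1alpha beside LacZ. The unit of the deposited values is a signal, named normalized counts in the file headers: whole reads divided by a size factor. The tools are known from the submitters' processing notes alone, which give no settings. They are DESeq2 2.11.40.6, featureCounts 1.6.4, STAR 2.7.2b, Trim Galore 0.4.3.1 and FastQC 0.72, and the build is mm10. A stranded kit was used, per the labels' protocols, but whether the counting used strand is not given in the sources used here. Of the 39 genes 21 overlap another gene, 6 of them on the same strand, and reads of overlapping genes and of pseudogene copies may have been divided or dropped. The authors' own log2 fold changes, Wald scores and p-values in the deposited tables were not used. Positions are in mm10, counted from 1.

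The values above 0 were whole multiples of 1 read for 100% of 317312 values within 0.001 reads, and the recovered reads of LacZ were identical in both tables. FL and dCTD were each compared with LacZ inside their own table by limma 3.58.1 (R 4.3.3; variance trend, robust moderation) on log2(value + 1). Genes needed a mean of 10 or more, and tests were two-sided with Benjamini-Hochberg adjustment over all genes tested. FL and dCTD were compared on reads brought to 1 scale with median-of-ratios factors, and the values printed per library are on this scale. The 1 added before log2 understates fold changes of low genes. TPM used exon lengths of GENCODE M21. Count tests (edgeR 4.0.16 and DESeq2 1.42.0 on the recovered reads), other scalings, filters and pseudocounts, a replicate block, a minimum fold and leaving out each library were alternatives. The limma steps were tested on simulated data. The structural groups of subunits follow the known structure of the mammalian enzyme.

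The genes, the lists and the tests were chosen with earlier results of these data known, so patterns already seen in them are no independent support. Counts and medians cover all 39 genes, and 1 gene is not reported here by name or drawn with its name. Values per library are given for the 5 highest and 5 lowest for FL over LacZ and for FL minus dCTD, for up to 6 genes a comparison, by p, that did not pass or went against the majority, for the core subunits and for Ndufa4 and Ndufa4l2. Values per library of Ndufa5, Ndufa8, Ndufb7 and Ndufb11, beyond that rule, were added after their values were seen.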

Additional observations from a re-analysis of the deposited data

How the results depend on the processing

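For FL over LacZ all 39 genes passed as higher under every alternative run except the minimum change of 1.5-fold, where 33 did, and the minimum mean of 50, where 38 did and Ndufa4l2 was not tested. The median stayed between 1.27 and 1.34 without any 1 library. It was 1.21 when scaled by total reads without Ppargc1a. For dCTD over LacZ 26 genes passed the 1.5-fold minimum, and 37 or 38 passed without any 1 library. For FL over dCTD 2 genes passed as higher and 0 as lower at 1.5-fold by limma, 26 as higher and 4 as lower with total reads without Ppargc1a, and 27 to 30 as higher and 2 as lower without any 1 library. Over all genes, the 1.5-fold minimum left 2679, 1398 and 907 calls for FL over LacZ, dCTD over LacZ and FL over dCTD, against 10799, 8094 and 7281.

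Of single genes, values changed sign for FL over dCTD in 4 that did not pass. Ndufs6 (-0.027) and Ndufa13 (-0.022) did so with total reads without Ppargc1a. Without single libraries, Ndufs6 ran from -0.006 to 0.075, Ndufa13 from -0.014 to 0.091, Ndufb3 from -0.060 to 0.027 and Ndufb11 from -0.050 to 0.021. Ndufa12 did not pass with DESeq2 (0.171, adjusted p = 0.122) nor Ndufa2 in 1 fit over all 9 libraries (0.127, adjusted p = 0.0863), with log2 differences close to the main 0.182 and 0.127. The difference in the spread of levels reversed for FL over LacZ with a pseudocount of 0.1 (-0.0967), and with the 37 genes of the structural groups for dCTD over LacZ (-0.00198) and FL over dCTD (0.0155). A median transcript length, chosen after seeing the data, reversed none of these but gave 0.0613 for FL over LacZ, against 0.0183 (exact p = 0.1 against 0.2). Causes were not tested beyond these settings.

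Deviations of same-numbered libraries were weakly correlated, between -0.067 and 0.0728. These correlations were positive for FL and dCTD (0.0356, 0.0683 and 0.0728) and negative for dCTD and LacZ (-0.0422, -0.067 and -0.0489). For FL and LacZ they were mixed in sign (-0.02, -0.0393 and 0.0295). Differently numbered libraries reached a like size, such as 0.0596 for FL and LacZ and -0.0602 for FL and dCTD. Whether the replicate numbers mark a shared culture or batch cannot be told from such values. With the replicate block 39 genes were higher for FL over LacZ, 38 for dCTD over LacZ, and 31 higher and 2 lower for FL over dCTD, where Ndufv3 and Ndufa7 were gained. With 3 libraries a group, permutation over libraries cannot go below 0.1, and at the depth of Ndufa4l2 its dCTD change over LacZ could not be resolved.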

Other observations

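Some complex I genes share their promoter region with a gene that runs the other way. The share of all genes with such a neighbour was not counted, so the number below is not given as a trait of this set. Of the 39 genes, 15 have a protein-coding gene on the opposite strand that starts within 500 bases of their own start, and 14 of these neighbours could be tested. These neighbours were looked up after the values of the complex I genes were known. With FL over LacZ 6 of the 14 neighbours rose and 2 fell, with a median log2 fold change of 0.05, beside a median of 0.96 for the complex I genes they sit next to. Of all genes tested 30.9% rose and 28.3% fell in this comparison. With dCTD over LacZ 4 rose and 4 fell, with medians of 0.03 for the neighbours and 0.79 for the complex I genes, and of all genes 23.1% rose and 21.7% fell. The starts of Ndufs1 and Eef1b2, a translation elongation factor gene, lie 8 bases apart, and their changes with FL were 1.36 ± 0.04 and -0.01 ± 0.04 (limma, adjusted p = 0.8 for Eef1b2). Ndufb9 and Tatdn1 start 18 bases apart and changed by 1.49 ± 0.04 and 0.13 ± 0.04 (adjusted p = 0.0107). Ndufa4 rose by 1.36 ± 0.04 while Phf14, 312 bases away, fell by 0.15 on the log2 scale (adjusted p = 0.00116).

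Mrpl36, which encodes a protein of the mitochondrial ribosome, starts 29 bases from Ndufs6 and rose by 0.43 ± 0.05 with FL and 0.37 ± 0.05 with dCTD, beside 0.76 ± 0.04 and 0.71 ± 0.04 for Ndufs6. The pair of Ndufa5 and Asb15, a muscle gene of the ubiquitin pathway whose start is 131 bases away, went apart between the forms. Asb15 averaged 189.1 normalized counts with FL, 639.5 with dCTD and 210.3 with LacZ. Its change was -0.15 ± 0.10 for FL, which did not pass (adjusted p = 0.218), and 1.59 ± 0.09 for dCTD (adjusted p = 7.97e-14), while Ndufa5 rose by 1.74 with FL and 1.22 with dCTD. The difference FL minus dCTD was -1.75 ± 0.08 for Asb15 (adjusted p = 6.09e-17) and 0.51 ± 0.04 for Ndufa5. Overlapping transcripts at such paired starts may share reads, and this was not tested.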
